A study of Rattus norvegicus with 23 samples.

Results

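The 9 genes described here encode enzymes of the pentose phosphate pathway and 2 cytosolic enzymes that supply NADPH by other routes. They were taken by symbol from the rat count table, which lists 30452 genes. These were H6pd, Pgls, Pgd, Tkt, Taldo1, Rpia and Rpe of the pathway, and Me1 and Idh1. The genes were chosen by the role of their enzymes, with the fold changes between the pH values in both lines already known, so that the adjusted p values below place each gene within the analysis of all genes and are no independent evidence on the group. All 9 genes passed the filter on low counts and were among the 14777 genes tested. Not every enzyme of the pathway was analysed here.

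The samples were NRK-52E cells, a rat kidney line labelled epithelial, and NRK-49F cells, a rat kidney line labelled as fibroblasts, both without any genetic change named in the labels. Serum was withdrawn from all cells for 24 h, and incubation at pH 7.4 (control) or at pH 6.0 (acidosis, set with HCl) followed for 48 h. Poly(A) RNA was sequenced from NRK-52E cells at each pH (n = 6), from NRK-49F cells at pH 7.4 (n = 6) and from acidotic NRK-49F cells (n = 5). The labels place the samples in 2 sample groups per line, 1 and 3 for NRK-52E and 4 and 6 for NRK-49F, each of which holds both pH values, with 2 or 3 samples at each pH. Each line stands for 1 cell line only, and the labels do not say that the samples came from separate cultures, so that p values measure the spread between these samples, which may be technical.

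The oxidative branch of the pentose phosphate pathway oxidises phosphorylated glucose and reduces NADP+ to NADPH, and the non-oxidative branch converts sugar phosphates into one another, linking ribose 5-phosphate to glycolysis. NADPH drives the reduction of glutathione and thioredoxin and the synthesis of fatty acids and cholesterol. Malic enzyme 1 and isocitrate dehydrogenase 1 are further cytosolic sources of NADPH. In the kidney, tubule cells have a high oxidative metabolism and need NADPH to keep glutathione reduced. Several of these genes are known targets of NFE2L2, the transcription factor of the antioxidant response.

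Promoter sequences are shown for the 4 genes that were higher at pH 6.0 in NRK-52E cells, Tkt, Taldo1, Me1 and Idh1, since these members moved together there. They are the 250 bases before the RefSeq start of each gene in the assembly GRCr8, read 5′ to 3′ on the strand of the gene. Tkt is at chr16:5729982-5730231 (plus strand), Taldo1 at chr1:205922946-205923195 (plus strand), Me1 at chr8:96540245-96540494 (minus strand) and Idh1 at chr9:74049475-74049724 (minus strand). Capitals mark matches on either strand to TGANNNNGC, a pattern looser than the core of the antioxidant response element that NFE2L2 binds. A match is thus not by itself such an element, and binding was not tested.
Tkt: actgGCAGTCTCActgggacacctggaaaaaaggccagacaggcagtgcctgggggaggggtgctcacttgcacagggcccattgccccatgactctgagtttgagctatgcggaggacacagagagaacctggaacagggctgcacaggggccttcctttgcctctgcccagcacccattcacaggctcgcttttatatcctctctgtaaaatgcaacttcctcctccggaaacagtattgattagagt
Taldo1: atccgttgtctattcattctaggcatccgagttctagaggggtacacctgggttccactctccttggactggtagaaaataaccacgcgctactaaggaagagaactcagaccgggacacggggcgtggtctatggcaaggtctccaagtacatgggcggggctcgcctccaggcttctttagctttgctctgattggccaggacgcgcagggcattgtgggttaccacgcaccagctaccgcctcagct
Me1: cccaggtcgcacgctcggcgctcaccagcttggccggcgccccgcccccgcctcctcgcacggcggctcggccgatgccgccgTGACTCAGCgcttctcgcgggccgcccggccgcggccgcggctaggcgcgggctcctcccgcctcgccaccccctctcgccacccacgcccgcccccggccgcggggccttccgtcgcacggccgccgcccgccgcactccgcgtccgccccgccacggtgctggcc
Idh1: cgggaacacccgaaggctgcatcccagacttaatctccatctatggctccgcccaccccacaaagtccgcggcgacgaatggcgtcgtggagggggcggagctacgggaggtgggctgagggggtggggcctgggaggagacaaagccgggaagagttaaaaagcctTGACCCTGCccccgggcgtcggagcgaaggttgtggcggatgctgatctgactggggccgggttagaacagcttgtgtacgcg
The match of Me1 reads TGACTCAGC and starts at position -167 from the gene start. The match of Idh1 reads TGACCCTGC at position -83, and that of Tkt lies on the opposite strand at position -246 and reads TGAGACTGC there. Over 300 bases per gene, which reach 50 bases past the start, 3 of the 8 members in the table held the motif, against 40.5% of all 33469 rat promoters of that length. The E box CACGTG was found in 0 of 8 (6.42% of all promoters) and the sterol regulatory element TCACNCCAC in 0 of 8 (1.12%), in a search of both strands. Pgls was not matched in the table. The share among the members was thus near that of all promoters.

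Total counts per sample ranged from 16412564 to 34250535, and every member had at least 300 counts in each sample. Levels are given in FPM, the counts of a gene per 1000000 counts of a library whose size was scaled by TMM (trimmed mean of M values), and are compared between samples of 1 gene and not between genes, whose lengths differ. Of the 8 epithelial markers checked, 7 were in the table, and Epcam, Cldn4, Cldn7, Krt18 and Esrp1 had at most 3 counts in any NRK-52E sample, with Esrp1 at 0. Cdh1 reached at most 0.349 FPM there, and Krt8 was at 499 FPM ± 76.4 (SD, n = 6) at pH 7.4 but also at 839 FPM ± 193 (SD, n = 6) in NRK-49F cells, so that the epithelial label rests on no defining marker here. The summed level of the epithelial list, nearly all Krt8, fell between 441 and 651 FPM in NRK-52E cells at pH 7.4, 195 and 260 FPM at pH 6.0, 667 and 1207 FPM in NRK-49F cells at pH 7.4 and 438 and 696 FPM at pH 6.0. Of the 8 fibroblast markers, Pdgfra, Vcam1 and Col1a2 marked the NRK-49F samples, with Pdgfra at 306 FPM ± 48.5 (SD, n = 6) against 1.83 FPM ± 1.54 (SD, n = 6) in NRK-52E cells at pH 7.4. Of the 7 tested, 6 were higher in NRK-49F cells at pH 7.4 and 1 was lower, Col3a1, at 1212 FPM ± 111 (SD, n = 6) against 6149 FPM ± 1378 (SD, n = 6) in NRK-52E cells. The summed fibroblast list, which in NRK-52E cells was mostly Col3a1, was 4979 to 8160 FPM there at pH 7.4, 1842 to 3120 FPM at pH 6.0, 10689 to 13633 FPM in NRK-49F cells at pH 7.4 and 7340 to 9875 FPM at pH 6.0, and Thy1 was at or near 0 throughout. The part of these shifts in the results below was not tested. In bulk samples, fewer cells of a kind and less RNA per cell cannot be told apart.

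Some libraries stood apart. Within each of the 4 conditions, the library with the lowest TMM factor (A035, A026, A052 and A042, with factors of 0.980, 1.02, 0.877 and 0.804) had the highest level of Pgls and the lowest of H6pd. Taldo1 was highest in 3 of these 4 libraries and second highest in A026. In NRK-49F cells at pH 6.0, A042 held 2384 FPM of Taldo1, where the other 4 libraries held 944 to 1308 FPM, and 1893 FPM of Tkt, where the others held 1275 to 1467 FPM. The factor therefore moved with the level of these genes within a condition. Values without these libraries and with the factor as a covariate are given below, and its part in the results was not tested further. A021, an NRK-52E library at pH 7.4, held 1.18% to 1.87% of the mean NRK-49F level at pH 7.4 of Pdgfra, Vcam1, Col1a2 and Idh2, above every other library of its group. Leaving A021 out gave the same number of members called in both comparisons of pH.

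**Figure D1:**
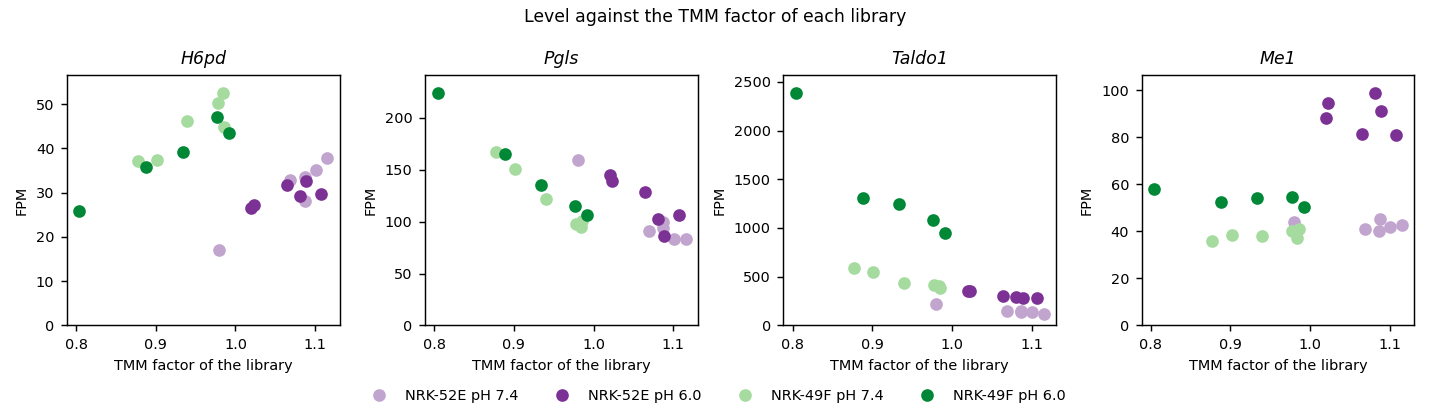
Level in FPM (y axis, from 0) of H6pd, Pgls, Taldo1 and Me1 against the TMM factor of each library (x axis), coloured by cell line and pH. In each condition the library of the lowest factor has the highest Pgls and the lowest H6pd, while its rank for Me1 varies between conditions.

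**Figure D2:**
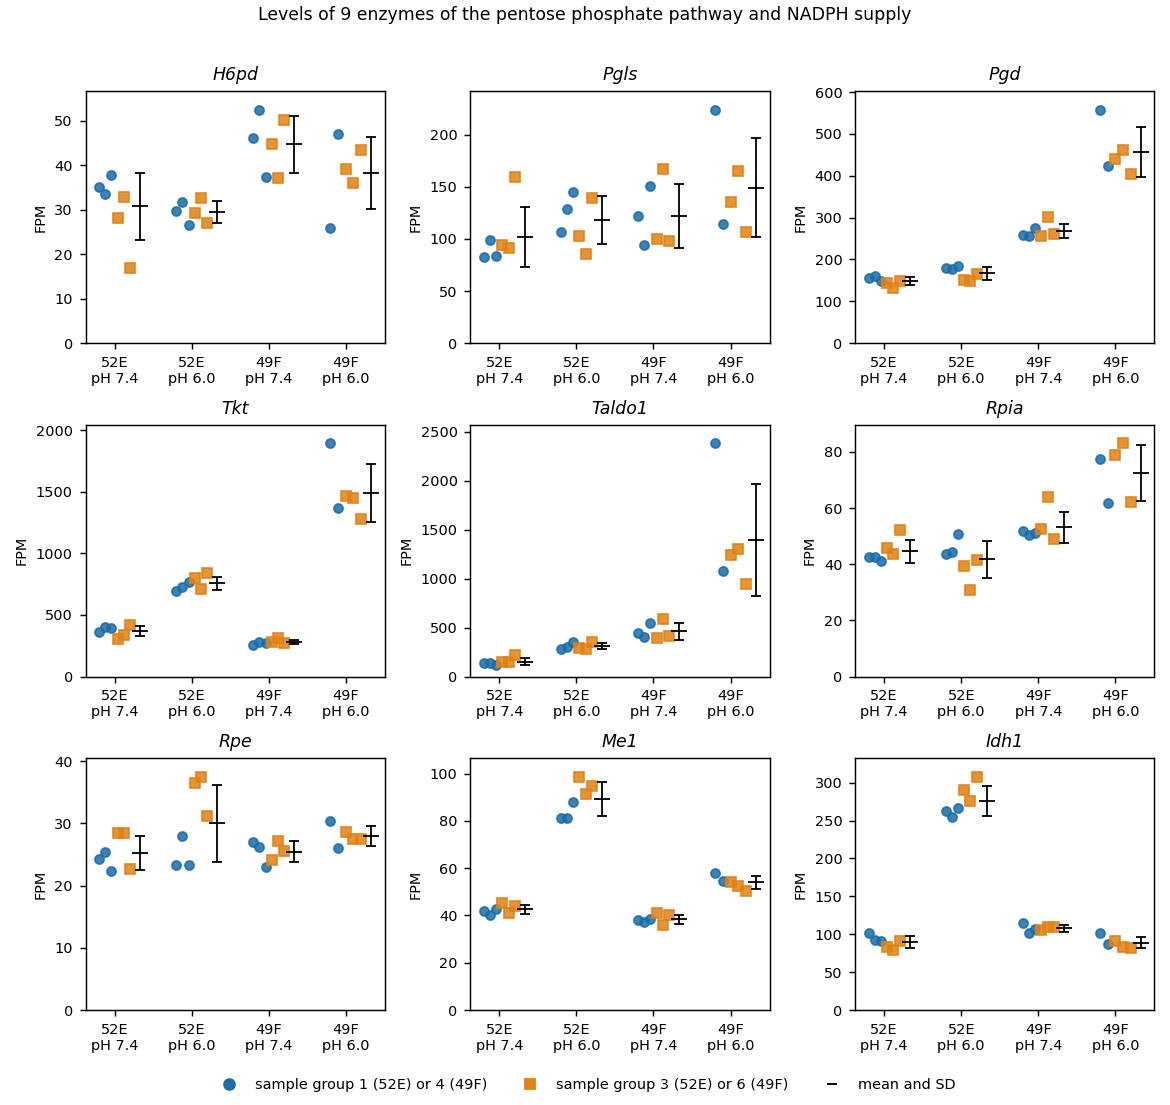
Level in FPM (y axis, from 0) of each of the 9 genes in every sample, by cell line and pH (x axis). Circles and squares are single samples of the 2 sample groups of each line, and black bars are the mean and SD. Tkt and Taldo1 at pH 6.0 in NRK-49F cells and Idh1 at pH 6.0 in NRK-52E cells stand above all other conditions.

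To ask which of these enzymes respond to acidosis in the line labelled epithelial, NRK-52E cells at pH 6.0 were compared with those at pH 7.4. Of the 9 members, 4 were higher and 0 lower, with 5 not passing the test. In the same comparison 61.2% of all genes tested passed, 24.7% higher and 36.6% lower, so that the share of members that passed was below the background and the share that was higher was above it. The median log2 fold change was 0.25 over the members and -0.12 over all genes. The 4 genes were Idh1, Me1, Taldo1 and Tkt. In these 4 of the 9 members the samples of both pH values did not overlap, and in the other 5 they did. No overlap was seen for 38.6% of all genes, a share near that of the members.

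Of the oxidative branch, no member passed the test in NRK-52E cells. H6pd, which runs the first steps of this branch inside the endoplasmic reticulum, was at 30.7 FPM ± 7.45 (SD, n = 6) at pH 7.4 and 29.5 FPM ± 2.41 (SD, n = 6) at pH 6.0, with overlapping samples (log2 fold change -0.06 ± 0.15 (SE, adjusted p = 0.742)). Pgls, the lactonase of the cytosolic branch, was at 102 FPM ± 28.8 (SD, n = 6) and 118 FPM ± 23.1 (SD, n = 6), and A035 at 159 FPM stood above controls that were otherwise at 83.0 to 99.2 FPM. Its log2 fold change was 0.21 ± 0.19 (SE, adjusted p = 0.346), with an interval of 2 SE from -0.17 to 0.60, and 0.43 ± 0.14 (SE, adjusted p = 0.0118) without the library of the lowest TMM factor in each condition. Pgd, the enzyme that yields the second NADPH of the branch, was at 148 FPM ± 10.1 (SD, n = 6) at pH 7.4 and 167 FPM ± 15.4 (SD, n = 6) at pH 6.0, a log2 fold change of 0.18 ± 0.08 (SE, adjusted p = 0.0605).

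In the non-oxidative branch, Tkt and Taldo1 rose and the enzymes that act on ribulose 5-phosphate did not pass the test. Tkt, the transketolase that moves units of 2 carbons between sugar phosphates, had lowest, median and highest levels of 308, 378 and 417 FPM at pH 7.4 and 691, 748 and 836 FPM at pH 6.0. All acidotic samples lay above all controls, with a log2 fold change of 1.03 ± 0.09 (SE, adjusted p = 1.79e-09). Taldo1, the transaldolase that works with it, was at 117, 144 and 219.9 FPM at pH 7.4 and at 280.3, 299 and 356 FPM at pH 6.0. The highest control was A035, well above the other controls at 117 to 147 FPM, and the pH values did not overlap. The log2 fold change of Taldo1 was 1.04 ± 0.18 (SE, adjusted p = 2.69e-05), and 1.25 ± 0.11 (SE, adjusted p = 3.51e-09) without the library of the lowest TMM factor in each condition. Rpia, the ribose 5-phosphate isomerase, was at 44.7 FPM ± 4.08 (SD, n = 6) and 41.8 FPM ± 6.59 (SD, n = 6), with a log2 fold change of -0.09 ± 0.10 (SE, adjusted p = 0.447). Rpe, the epimerase that forms xylulose 5-phosphate, was at 25.3 FPM ± 2.73 (SD, n = 6) and 30.0 FPM ± 6.23 (SD, n = 6), with a log2 fold change of 0.25 ± 0.11 (SE, adjusted p = 0.0522).

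Both cytosolic enzymes outside the pathway rose in NRK-52E cells. Idh1, the NADP+-dependent isocitrate dehydrogenase, had the largest change of the 9 members in this line. Its lowest, median and highest levels were 79.7, 90.8 and 102 FPM at pH 7.4 and 254, 271 and 308 FPM at pH 6.0. Every acidotic sample lay far above every control. The log2 fold change was 1.62 ± 0.07 (SE, adjusted p = 1.10e-14), a 3.07-fold rise, which had the rank 471 among the rises of all 14777 genes. Me1, the malic enzyme that forms pyruvate and NADPH from malate, was at 40.3, 42.3 and 45.4 FPM at pH 7.4 and at 81.1, 89.6 and 98.7 FPM at pH 6.0. Both groups were tight and far apart. The rise was 2.09-fold, a log2 fold change of 1.07 ± 0.06 (SE, adjusted p = 1.44e-12).

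Pgd and Rpe were near the threshold, and the count in NRK-52E cells depended on the setting. Both passed with RLE scaling (adjusted p = 0.0183 and 0.0260), with DESeq2 (adjusted p = 0.00952 and 0.0198), with the sample group as a block (adjusted p = 0.0392 and 0.0268) and in NRK-52E cells alone (adjusted p = 0.00695 and 0.0403), so that 6 members were called under each of these settings, where 61.2%, 62.3%, 63.6% and 62.3% of all genes were, a share near that of the members. Without the library of the lowest TMM factor in each condition 7 members were called, Pgls among them, where 64.6% of all genes were. With the TMM factor as a covariate 7 were called, where 68.7% of all genes were. Both settings of the TMM factor were chosen after seeing the data.

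The same comparison in NRK-49F cells asked how the line labelled as fibroblasts responds. Here 5 members were higher and 1 lower at pH 6.0, and 3 did not pass the test, where 28.9% of all genes passed, 14.5% higher and 14.4% lower. The share of members that were higher lay above the background. The median log2 fold change was 0.45 over the members and 0.00 over all genes. Tkt, Taldo1, Pgd and Me1 showed no overlap between the pH values, as did 20.6% of all genes.

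Pgd was the one member of the oxidative branch called in this line. It was at 256, 260.0 and 300.3 FPM (lowest, median, highest) at pH 7.4, and at 403, 424, 439, 461 and 558 FPM in the 5 acidotic samples. The acidotic samples all exceeded the controls. The log2 fold change was 0.77 ± 0.08 (SE, adjusted p = 2.06e-07), a 1.71-fold rise. H6pd was at 44.7 FPM ± 6.39 (SD, n = 6) at pH 7.4 and 38.3 FPM ± 8.15 (SD, n = 5) at pH 6.0 (log2 fold change -0.23 ± 0.16 (SE, adjusted p = 0.314)), and Pgls was at 122 FPM ± 30.6 (SD, n = 6) and 149 FPM ± 47.5 (SD, n = 5) (log2 fold change 0.29 ± 0.20 (SE, adjusted p = 0.305)). Neither passed the test, and both did with the TMM factor as a covariate, H6pd at -0.24 (adjusted p = 0.0270) and Pgls at 0.27 (adjusted p = 0.00298), a setting with 8 members called where 40.7% of all genes were.

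Tkt changed most of all members in NRK-49F cells. It was at 255, 279.6 and 309 FPM at pH 7.4, and at 1275, 1370.5, 1451, 1467 and 1893 FPM at pH 6.0. The lowest acidotic sample lay several times above the highest control. The rise was 5.32-fold, a log2 fold change of 2.41 ± 0.10 (SE, adjusted p = 2.48e-14), with the rank 91 among the rises of all genes. Without A042, the highest acidotic sample, the log2 fold change was 2.31.

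Taldo1 rose with a wider spread. Its levels were 389, 425 and 591 FPM at pH 7.4 and 944, 1080.4, 1244, 1308 and 2384 FPM at pH 6.0. The groups did not overlap, and A042 stood apart from the other acidotic samples. The log2 fold change was 1.59 ± 0.19 (SE, adjusted p = 8.30e-07), a 3.01-fold rise, and 1.30 without A042 (adjusted p = 6.59e-07). Rpia was at 48.9, 51.4 and 64.0 FPM at pH 7.4 and at 61.7, 62.0, 77.4, 78.7 and 83.1 FPM at pH 6.0. Of the controls, A052 alone reached into the acidotic range. The rise of Rpia was 1.37-fold, a log2 fold change of 0.45 ± 0.11 (SE, adjusted p = 0.00273). Rpe was at 25.5 FPM ± 1.65 (SD, n = 6) and 28.0 FPM ± 1.60 (SD, n = 5) and did not pass the test (log2 fold change 0.13 ± 0.11 (SE, adjusted p = 0.408)).

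Me1 rose and Idh1 fell in NRK-49F cells. Me1 was at 35.9, 38.1 and 40.99 FPM at pH 7.4 and at 50.4, 52.6, 54.2, 54.8 and 57.9 FPM at pH 6.0. The samples of both pH values were apart, at a log2 fold change of 0.49 ± 0.07 (SE, adjusted p = 3.90e-06). Idh1 was at 101, 108 and 115 FPM at pH 7.4 and at 82.3, 83.3, 87.0, 91.0 and 102 FPM at pH 6.0. The highest acidotic sample, A042, lay just above the lowest control, and the others lay below all controls. Idh1 fell by 0.28 ± 0.07 (SE) on the log2 scale (adjusted p = 0.00540), a 1.21-fold lower level.

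Read across both lines, Tkt, Taldo1 and Me1 were higher at pH 6.0 in both, as were 6.94% of all genes, and 0 members were lower in both, as were 9.39%. Idh1 was higher in NRK-52E and lower in NRK-49F cells, as were 1.25% of all genes, and 0 members showed the opposite pattern, as did 2.94%.

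**Figure D3:**
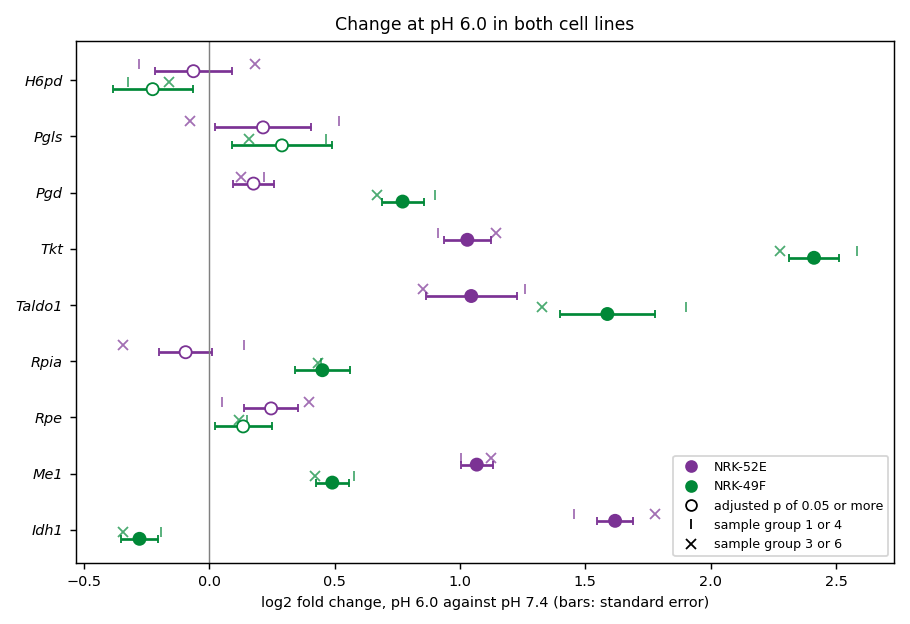
Log2 fold change at pH 6.0 against pH 7.4 (x axis) of each gene (y axis) in NRK-52E and NRK-49F cells. Points with standard error bars are the analysis of all samples, filled where the adjusted p is under 0.05, and vertical ticks and crosses are the 2 sample groups of each line. Tkt, at 2.41, changed most in NRK-49F cells, and Idh1, at 1.62 in NRK-52E and -0.28 in NRK-49F cells, took opposite directions.

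Whether the lines differ in their response was tested directly, as the log2 fold change of NRK-52E cells less that of NRK-49F cells. This difference was called for 5 of the 9 members, above 0 for 2 and below 0 for 3, against 41.4% of all genes, 16.8% above and 24.7% below. Pgd (-0.59 ± 0.12, SE, adjusted p = 0.000230), Tkt (-1.38 ± 0.13, SE, adjusted p = 2.71e-08) and Rpia (-0.55 ± 0.15, SE, adjusted p = 0.00539) had the higher log2 fold change in NRK-49F cells. Me1 (0.58 ± 0.09, SE, adjusted p = 2.08e-05) and Idh1 (1.90 ± 0.10, SE, adjusted p = 3.86e-12) had the higher one in NRK-52E cells. Those called below 0 were 3 pathway enzymes, and those called above 0 were both enzymes outside the pathway. The other 4 members, all of the pathway, were not called, and their values lay on both sides of 0. The shares of members called on each side were not far from those of all genes.

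For Taldo1, the difference was -0.54 ± 0.26 (SE, adjusted p = 0.0985) and did not pass the test. It was -0.26 (adjusted p = 0.324) without A042, -0.66 (adjusted p = 0.0410) without A056, and -0.47 (adjusted p = 1.32e-05) with the TMM factor as a covariate. H6pd (0.16, with an interval of 2 SE from -0.28 to 0.60), Pgls (-0.08, from -0.63 to 0.48) and Rpe (0.11, from -0.20 to 0.43) did not pass, and these intervals allow differences in either direction.

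The lines were also set against each other at each pH. These comparisons share their samples with those above, so that the values are given side by side. At pH 7.4, 5 members were higher and 2 lower in NRK-49F than in NRK-52E cells, where 68.8% of all genes were called, 33.9% higher and 35% lower. At pH 6.0, 5 were higher and 2 lower, where 75.5% were called, 38.9% higher and 36.6% lower. Neither total stood far from its background.

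Tkt changed its order between the lines. At pH 7.4 it was lower in NRK-49F cells, at a log2 fold change of -0.40 ± 0.09 (SE, adjusted p = 0.000515), and at pH 6.0 it was higher, at 0.98 ± 0.10 (SE, adjusted p = 2.20e-09). Idh1 went the other way, from 0.27 ± 0.07 (SE, adjusted p = 0.00156) at pH 7.4 to -1.63 ± 0.08 (SE, adjusted p = 1.55e-15) at pH 6.0. Taldo1 was higher in NRK-49F cells at both pH values, by 1.62 ± 0.18 (SE, adjusted p = 3.09e-08) and 2.16 ± 0.19 (SE, adjusted p = 3.15e-10). Pgd was likewise higher, by 0.86 ± 0.08 (SE, adjusted p = 1.12e-09) and 1.45 ± 0.08 (SE, adjusted p = 1.12e-13).

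Me1, Rpia and H6pd also differed between the lines. Me1 in NRK-49F cells stood at -0.15 ± 0.06 (SE, adjusted p = 0.0395) relative to NRK-52E cells at pH 7.4 and at -0.72 ± 0.07 (SE, adjusted p = 5.13e-10) at pH 6.0, in log2 units. Rpia was higher by 0.25 ± 0.10 (SE, adjusted p = 0.0363) and 0.80 ± 0.11 (SE, adjusted p = 4.56e-07), and H6pd by 0.54 ± 0.15 (SE, adjusted p = 0.00311) and 0.38 ± 0.16 (SE, adjusted p = 0.0362). Some of these calls were lost under alternatives, for Me1 at pH 7.4 with RLE scaling (adjusted p = 0.0658), without the filter (0.0992) or without any of 8 samples, up to an adjusted p of 0.134 without A056. The call of Rpia at pH 7.4 was lost without any of 5 samples, up to 0.111 without A052, and that of H6pd at pH 6.0 without any of 7 samples, up to 0.113 without A043, and also with RLE scaling (adjusted p = 0.0573), with DESeq2 (0.0540) and without the filter (0.0513). Pgls and Rpe were not called at either pH, and Pgls was called at pH 7.4 without A035 (0.44, adjusted p = 0.0354) and at pH 6.0 without A056 (0.49, adjusted p = 0.0374).

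In the order of the 4 conditions, some neighbours were apart. For Taldo1 no neighbouring conditions overlapped, from NRK-52E cells at pH 7.4 at the low end, through NRK-52E at pH 6.0 and NRK-49F at pH 7.4, to NRK-49F at pH 6.0. Pgd had the same order, with overlap between the pH values of NRK-52E cells. Tkt and Me1 both started with NRK-49F cells at pH 7.4, which overlapped NRK-52E cells at pH 7.4. They ended with NRK-49F cells at pH 6.0 for Tkt and NRK-52E cells at pH 6.0 for Me1. For Idh1, NRK-52E cells at pH 6.0 stood apart from the other 3 conditions, which overlapped their neighbours. H6pd, Pgls, Rpia and Rpe overlapped between all neighbours.

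**Figure D4:**
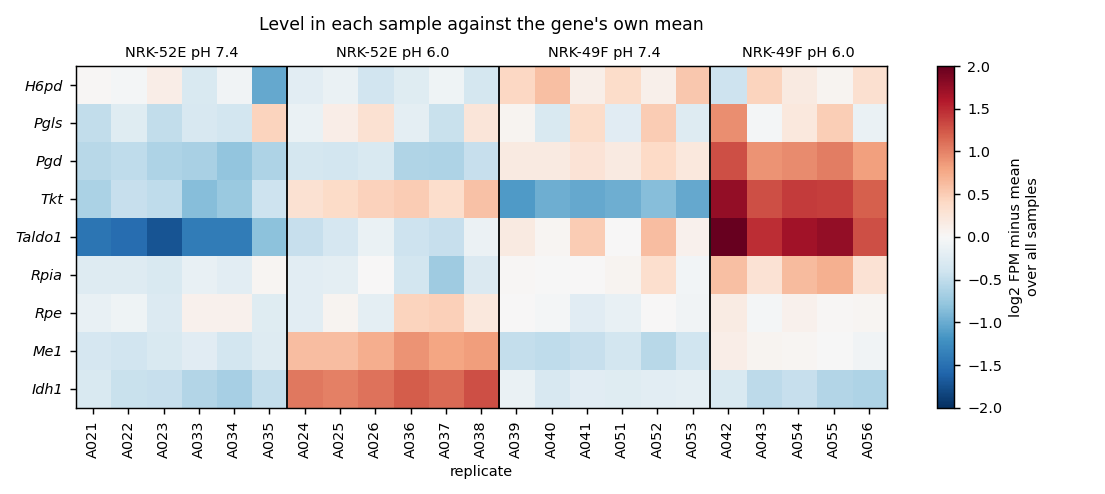
Level of each gene in each of the 23 samples as log2 FPM minus the mean of the gene over all samples (colour), with genes down the y axis and samples along the x axis by condition. Over the samples, Taldo1 has the widest spread (SD 1.17 on the log2 scale) and Rpe the narrowest (SD 0.20).

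The sample groups gave a view within each line. In group 1 of NRK-52E cells 4 members were higher at pH 6.0 and 0 lower, where 47.5% of all genes were called, 18.2% higher and 29.3% lower. In group 3, 5 were higher and 1 lower, where 55.9% were called, 23.1% higher and 32.8% lower. Tkt, Taldo1, Me1 and Idh1 passed in both groups, Idh1 at a log2 fold change of 1.46 ± 0.08 (SE, adjusted p = 5.30e-11) in group 1 and 1.78 ± 0.08 (SE, adjusted p = 1.26e-12) in group 3. Rpe was called in group 3 at 0.40 ± 0.11 (SE, adjusted p = 0.00511) and was at 0.05 ± 0.11 (SE, adjusted p = 0.737) in group 1. Rpia fell in group 3 at -0.35 ± 0.13 (SE, adjusted p = 0.0323) and was at 0.14 ± 0.13 (SE, adjusted p = 0.405) in group 1. The response differed between groups 1 and 3 by edgeR for 0 members, where 9.91% of all genes were called, 3.45% with a higher change in group 3 and 6.46% with a lower one. At an unadjusted p under 0.05 there were 3 members, Rpia, Rpe and Idh1, and 23.4% of all genes, and DESeq2 called 1 member and 14% of all genes. That member was Idh1 (adjusted p = 0.0168, against 0.0803 by edgeR).

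In NRK-49F cells, Pgd, Tkt, Taldo1, Rpia and Me1 were called higher in both sample groups. Group 4 thus had 5 members higher and 0 lower, where 21.9% of all genes were called, 11.4% higher and 10.5% lower. Group 6 had 5 higher and 1 lower, where 20.2% were called, 9.85% higher and 10.4% lower. Tkt changed by 2.58 ± 0.14 (SE, adjusted p = 8.64e-11) in group 4 and 2.27 ± 0.13 (SE, adjusted p = 2.01e-10) in group 6, on the log2 scale. Idh1 was the member that fell in group 6, at -0.34 ± 0.08 (SE, adjusted p = 0.00447), and was at -0.19 ± 0.09 (SE, adjusted p = 0.141) in group 4, which holds 2 acidotic samples. The response differed between groups 4 and 6 by edgeR for 0 members and for 0 of 15478 genes (0%). At an unadjusted p under 0.05 there were 0 members and 624 genes (4.03% of all genes). DESeq2 called 0 members and 0.0646% of all genes. These counts of 0 members were thus near the shares of all genes.

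Levels of the members followed different courses over the 23 samples. As a description, likeness was measured as the root mean square difference of log2 FPM between genes, each centred on its own mean, over 9868 genes that averaged 5 FPM or more. Among the members, Pgls and Rpia were nearest to each other (0.284), followed by Me1 and Idh1 (0.360) and Pgd and Rpia (0.365), and Taldo1 and Idh1 were farthest apart (1.42). Of other genes, the nearest 2 were Hif1an and Tbc1d5 to H6pd (0.126 and 0.128) and Pgam1 and Msantd3 to Pgd (0.143 and 0.162), and Rack1 was nearest to Pgls (0.0678). To Tkt they were Acyp1 and Pank1 (0.278 and 0.426), and to Taldo1 Nol3 and Psmb9 (0.330 and 0.344). They were Sae1 and Cdkn2aipnl for Rpia (0.115 and 0.124), Ccdc43 and Ube2d3 for Rpe (both 0.120), Clk3 and Psmd11 for Me1 (0.116 and 0.122), and Slc2a6 and Tmem39a for Idh1 (0.173 and 0.199). The nearest gene to Tkt and to Taldo1 was thus farther away than the nearest to any other member. This measure grows with the spread of a gene, and Taldo1 and Tkt had the widest of the members (SD 1.17 and 0.94). These distances therefore do not show that the shape of their patterns was unusual.

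Of 13 other genes of the pathway and of ribose metabolism, 12 were in the table and 10 were tested. In NRK-52E cells 1 was higher and 2 lower, where 24.7% of all genes were higher and 36.6% lower (61.2% called). The median log2 fold change was -0.04 beside -0.12 over all genes. In NRK-49F cells 3 were higher and 0 lower, a total share near the 28.9% of all genes called there (14.5% higher, 14.4% lower). The median was 0.17 beside 0.00. Pgm2, a phosphopentomutase, was the one that rose in NRK-52E cells, at 0.40 ± 0.08 (SE, adjusted p = 0.000178). Idnk, a gluconate kinase that feeds the pathway, changed most there, from 9.15 FPM ± 1.32 (SD, n = 6) to 1.90 FPM ± 0.426 (SD, n = 6), a log2 fold change of -2.25 ± 0.15 (SE, adjusted p = 5.92e-12), and was at -0.28 ± 0.13 (SE, adjusted p = 0.129) in NRK-49F cells. Shpk, the sedoheptulose kinase, rose most in NRK-49F cells, from 3.59 FPM ± 0.442 (SD, n = 6) to 8.30 FPM ± 1.18 (SD, n = 5), a log2 fold change of 1.20 ± 0.12 (SE, adjusted p = 5.18e-08), and was at -0.22 ± 0.11 (SE, adjusted p = 0.0853) in NRK-52E cells. The transketolase relatives Tktl1 and Tktl2 had 0 counts in all 23 samples.

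A further list held 13 other genes linked to the supply of NADPH, all of which were tested. Besides enzymes that form NADPH, it included the NAD kinases Nadk and Nadk2 and the citrate carrier Slc25a1. In NRK-52E cells 3 were higher and 7 lower (median -0.26 beside -0.12), where 24.7% of all genes were higher and 36.6% lower. In NRK-49F cells, 3 rose and 4 fell, where 14.5% of all genes rose and 14.4% fell (median 0.18 beside 0.00, without Me3, which had at most 5 counts in any sample of that line). Me2, a mitochondrial malic enzyme, fell in NRK-52E cells from 46.1 FPM ± 5.09 (SD, n = 6) to 22.01 FPM ± 1.19 (SD, n = 6), at a log2 fold change of -1.07 ± 0.09 (SE, adjusted p = 3.21e-10), and in NRK-49F cells it was at -0.26 ± 0.09 (SE, adjusted p = 0.0336). Idh2, the mitochondrial counterpart of Idh1, was low in NRK-52E cells, at 0.801 FPM ± 0.836 (SD, n = 6) and 0.208 FPM ± 0.177 (SD, n = 6) (log2 fold change -1.98 ± 0.56 (SE, adjusted p = 0.00360)), with the highest value in A021. Without A021, an alternative chosen after seeing the data, the control level of Idh2 was 0.480 FPM ± 0.318 (SD, n = 5) and the log2 fold change -1.11 ± 0.47 (SE, adjusted p = 0.0475). In NRK-49F cells it was at 128 FPM ± 12.2 (SD, n = 6) and 157 FPM ± 21.2 (SD, n = 5) and did not pass the test (adjusted p = 0.439). That test used an estimate of the spread shared by all 4 conditions, the low levels of NRK-52E cells included. A value of Idh2 from NRK-49F cells alone is not given. Aldh1l1, a folate enzyme that forms NADPH, had at most 1 count in any control sample of NRK-52E cells and was at least 7.26-fold higher at pH 6.0, against a level of 3 counts per library.

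Of 15 listed enzymes that use NADPH, 14 were tested, of which 9 rose and 3 fell in NRK-52E cells (median 1.44 beside -0.12), while 7 rose and 1 fell in NRK-49F cells (median 0.47 beside 0.00). Of all genes 61.2% were called in NRK-52E cells, 24.7% higher and 36.6% lower. In NRK-49F cells 28.9% were called, 14.5% higher and 14.4% lower. Sqle, the squalene epoxidase of cholesterol synthesis, rose most in NRK-52E cells, from 29.5 FPM ± 10.2 (SD, n = 6) to 117 FPM ± 18.1 (SD, n = 6), at a log2 fold change of 1.99 ± 0.16 (SE, adjusted p = 3.79e-10), and was at -0.27 ± 0.17 (SE, adjusted p = 0.244) in NRK-49F cells. Hsd11b1, which uses NADPH to activate glucocorticoids inside the endoplasmic reticulum, was low in NRK-52E cells at pH 7.4, at 1.29 FPM ± 0.962 (SD, n = 6), and at least 8.81-fold lower at pH 6.0. Its counts reached 97 in these controls and 5377 in NRK-49F cells at pH 7.4. No value without A021 is given for Hsd11b1, and the part of that library in this fall was not tested. Nqo1, the quinone reductase, rose most in NRK-49F cells, from 475 FPM ± 47.8 (SD, n = 6) to 2420.2 FPM ± 617 (SD, n = 5), at 2.35 ± 0.16 (SE, adjusted p = 1.06e-10), and was at 1.55 ± 0.15 (SE, adjusted p = 5.12e-09) in NRK-52E cells. Fasn, the fatty acid synthase, was the one that fell in NRK-49F cells, at -0.36 ± 0.13 (SE, adjusted p = 0.0363), and it rose in NRK-52E cells, at 1.45 ± 0.12 (SE, adjusted p = 4.51e-10).

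NFE2L2, its negative regulator Keap1 and its well known targets formed the last list, which shares Txnrd1 and Nqo1 with the one before. Of 10 listed, 9 were in the table and tested, of which 6 rose and 0 fell in NRK-52E cells (median 0.58 beside -0.12), while 8 rose and 0 fell in NRK-49F cells (median 0.93 beside 0.00), beside the same shares of all genes. The 8 that rose in NRK-49F cells include Keap1, so that they are not all targets. Slc7a11 had at most 8 counts in any NRK-52E sample, and its value there is uncertain. Osgin1 rose most in NRK-52E cells, from 8.84 FPM ± 1.16 (SD, n = 6) to 61.6 FPM ± 9.80 (SD, n = 6), at a log2 fold change of 2.81 ± 0.12 (SE, adjusted p = 1.10e-14), and was at 1.00 ± 0.12 (SE, adjusted p = 7.28e-07) in NRK-49F cells. Hmox1, the heme oxygenase, was at -0.48 ± 0.30 (SE, adjusted p = 0.172) in NRK-52E cells and did not pass the test there. The transcript of Nfe2l2 itself was at 0.05 ± 0.06 (SE, adjusted p = 0.462) in NRK-52E and -0.06 ± 0.06 (SE, adjusted p = 0.543) in NRK-49F cells and was called in neither line.

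**Figure D5:**
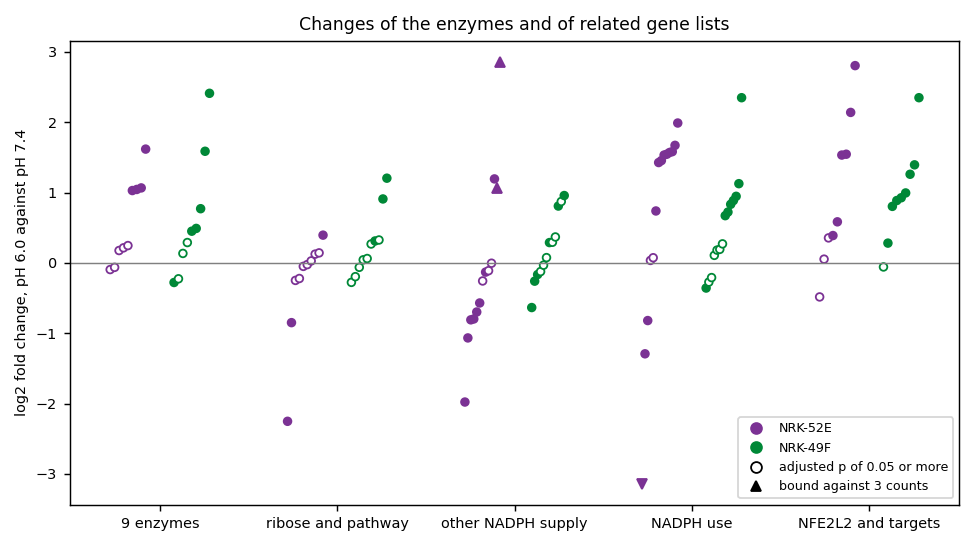
Log2 fold change at pH 6.0 against pH 7.4 (y axis) of each tested gene of the 5 lists (x axis) in NRK-52E and NRK-49F cells, filled where the adjusted p is under 0.05. Triangles are bounds for genes at 3 counts or fewer in every library of 1 condition, and Me3 is left out in NRK-49F cells. Of the NADPH-using enzymes 9 of 14 were called higher in NRK-52E cells, where 24.7% of all genes were.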

How the data were processed

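Poly(A) RNA of NRK-52E and NRK-49F cells was sequenced, and the authors mapped the reads with HISAT2 (2.1.0 in the submitters' processing notes) to the rat genome and counted them with featureCounts, multi-mapping reads included. The deposited values are raw counts per gene without normalization. The methods name the build rn7 and the processing notes rn6, and the strand setting is not given in the sources used here. Members with close relatives can therefore hold reads that belong to a paralog. Of the per-sample columns 23 were used and 13 were not, since they match no sample label. Not every enzyme of the pathway, and not every gene near a member in pattern, is reported here.

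Line and pH of each sample come from the labels. Replicate codes differ between pH values, which leaves the comparisons unpaired. One model held all 23 samples in 4 conditions (R 4.3.3, edgeR 4.0.16, filterByExpr with min.count 10 and min.total.count 15, TMM, quasi-likelihood test, Benjamini-Hochberg adjusted p under 0.05 over all genes tested). Sample groups were compared in a second model of line, pH and sample group. The SE is the absolute log2 fold change divided by the square root of F, and intervals span 2 SE. Bounds against conditions at 3 counts or fewer use 3 counts per library and cover counting error only. Total counts of 16412564 to 34250535 per sample put all members at 300 counts or more.

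The members, the lists and the motifs were chosen with earlier results of these data known. The text names all 9 members, the 2 genes nearest to each in pattern (pseudocount 0.25 FPM), the genes of each list with the largest change each way in each line, and relatives of the members. The steps were tested on simulated data. Alternatives were RLE, DESeq2 1.42.0, calls by both tools, no filter or a stricter one, testing for log2 fold changes beyond 1 in size, the sample group as a block or alone, the cell line alone, and each replicate left out, with 2 settings of the TMM factor added after seeing the data. Promoters are RefSeq windows of GRCr8. Protein sequences and transcript lengths were not used here.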

Additional observations from a re-analysis of the deposited data

Results flagged for a closer look

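Sets of levels were checked for a highest or lowest sample whose gap to its neighbour, as a share of the whole range, exceeded Dixon's critical value. Of the 9 members in 4 conditions, 4 sets held one, and by the construction of that value chance gives about 1 in 20 sets. In NRK-52E cells at pH 7.4, A035 was the highest sample for Pgls at 159 FPM and for Taldo1 at 220 FPM (219.9). For Taldo1 in NRK-49F cells at pH 6.0, A042 was highest at 2384 FPM, and for Rpia in NRK-49F cells at pH 7.4, A052 was highest at 64.0 FPM. Each of these 3 libraries had the lowest TMM factor of its condition. The part of that factor was not tested beyond the settings without the libraries of lowest factor and with the factor as a covariate.

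Members whose response to pH 6.0 differed between both lines by the test of the difference, as NRK-52E minus NRK-49F in log2 units, were Pgd (-0.59), Tkt (-1.38), Rpia (-0.55), Me1 (0.58) and Idh1 (1.90). Idh1 moved in opposite directions in both lines, higher in 6 of 6 acidotic samples of NRK-52E cells than in any control.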

How the results depend on the processing

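No paired analysis was possible because the replicate codes are not shared between the pH values. The calls of Idh1 in NRK-52E cells and of Tkt and Taldo1 in NRK-49F cells kept direction and threshold under every alternative run. Those of Tkt, Taldo1 and Me1 in NRK-52E cells and of Pgd, Rpia and Me1 in NRK-49F cells did so except in the test beyond a log2 fold change of 1, and Idh1 in NRK-49F cells except there and in sample group 4. With that test the members called were 1 for NRK-52E cells, 2 for the NRK-49F line, 2 for the difference between the lines, 1 for the lines at pH 7.4 and 3 at pH 6.0, where 13.4%, 1.99%, 6.54%, 25.5% and 33.7% of all genes were called. In NRK-52E cells 7 were called both without the library of the lowest TMM factor in each condition and with that factor as a covariate. For sample groups 1 and 3, 1 was called by DESeq2 (14% of all genes) and 1 without those libraries (8.97%). With each replicate left out, the members called were 4 to 5 for NRK-52E cells (58.2% to 62.2% of all genes), 6 for the NRK-49F line (24.5% to 30.4%), 5 to 6 for the difference (38% to 42.3%), 5 to 7 for the lines at pH 7.4 (66.4% to 69.8%), 6 to 7 at pH 6.0 (72.9% to 76.4%) and 0 for sample groups 1 and 3 (6.79% to 11.4%) and 4 and 6 (0% to 0.0439%). The median log2 fold change of all genes in NRK-52E cells was -0.12, -0.08 with RLE scaling and -0.0023 with this line alone.

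Changes of sign occurred where the member was not called, and for Me1 at pH 7.4 between the lines (0.0013 without the libraries of lowest TMM factor). In NRK-52E cells H6pd was at 0.026 with this line alone, 0.18 in group 3 and -0.19 to 0.0044 with each replicate left out, Pgls at -0.075 in group 3, and Rpia at 0.14 in group 1 and 0.00083 without the libraries of lowest TMM factor. Without these libraries, the difference between the lines was 0.23 for Pgls, and that between groups 4 and 6 was -0.33 for H6pd, 0.53 for Pgls, 0.040 for Pgd, 0.31 for Taldo1, 0.27 for Rpia and 0.12 for Rpe. With each replicate left out, the difference between the lines spanned -0.19 to 0.12 for Pgls, Rpe between the lines at pH 7.4 spanned -0.022 to 0.058, and the difference between groups 4 and 6 spanned -0.21 to 0.66 for H6pd, -0.71 to 0.26 for Pgls, -1.04 to 0.11 for Taldo1, -0.16 to 0.17 for Rpia and -0.13 to 0.089 for Rpe. The cause of these changes was not tested. Rpia and Me1 between the lines at pH 7.4 and H6pd at pH 6.0 lost their calls as given above. Group 4 holds 2 acidotic samples.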
